A study of Mus musculus with 32 samples.

Results

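Intraflagellar transport (IFT) and BBSome genes were followed through the first wave of male meiosis in C57BL/6J mice. Members were the protein-coding genes of the juvenile gene table whose symbols begin with Ift or Bbs followed by a number, together with Ttc8, Wdr19, Wdr35, Ttc21b, Dync2h1, Dync2li1, Traf3ip1 and Cluap1, in GENCODE release M21. The rule found 30 of the 20368 genes in that table, of which 13660 were protein-coding. The symbols' prefix gave 22 members and the list of names gave 8. The table keeps genes with at least 3 TPM (a relative level explained below) in at least 1 mouse, so a matching gene under that level in all 28 juvenile mice is not among the members. All 30 were also in the table of adult cells.

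Poly-A RNA was sequenced from germ cells of 28 single male mice, 3 at 8 days post partum (dpp) and 5 at each of 10, 12, 14, 16 and 18 dpp. The cells were released from seminiferous tubules by enzyme digestion after interstitial cells had been washed away, and were not sorted by type. In addition, 4 adult samples of pachytene and diplotene spermatocytes were sedimented by size (STA-PUT) from testes of 9-week-old mice, each sample being a pool of 6 animals. No mutation, transgene or treatment was involved in any group. Expression is given as TPM, a share of each library that allows for transcript length, so that levels of different genes can be set side by side. TPM keeps no read counts, and the depth of each library is unknown. A TPM is also relative to all other RNA in a mixed cell sample, and fewer cells of a type and less RNA per cell cannot be told apart.

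IFT is the bidirectional traffic of protein trains along the microtubules of cilia and flagella. Trains are built from the IFT-B and IFT-A complexes. Kinesin-2 carries the trains towards the tip, and cytoplasmic dynein-2 brings them back to the base. The BBSome is a coat of several subunits that rides on these trains and links them to membrane cargo, and its assembly needs chaperonin-like proteins. In the testis, most IFT subunits that have been studied are needed to build the sperm tail, which grows out in spermatids after meiosis. Germ cells of the ages studied here are spermatogonia and spermatocytes in meiotic prophase. By the paper's count of stained cells, germ cells were the large majority in every juvenile sample. RNA of markers of the supporting Sertoli cells was also present, as given below. The paper also scored the stages of the germ cells in each mouse by cytology, and those scores were not used here.

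Summed over the 30 members, the level was 713, 673 and 707 TPM in the 3 mice at 8 dpp and 685, 715, 689, 719 and 709 TPM in the 5 mice at 10 dpp. It was 832, 865, 924, 814 and 874 TPM at 12 dpp and 967, 888, 982, 1016 and 949 TPM at 14 dpp. At 16 dpp the mice had 1778, 1315, 1269.9, 1243 and 1425 TPM, and at 18 dpp 2553, 2552, 2445, 1872 and 1836 TPM. The ages 8 and 10 dpp overlapped, every mouse at 12 dpp was above them, and the mice at 12 and 14 dpp overlapped again. All mice at 16 dpp were above all mice at 14 dpp, and all at 18 dpp above all at 16 dpp, with mice 4 and 5 at 18 dpp well under mice 1, 2 and 3. The mean at 8 dpp was 698 ± 21.9 TPM (SD, n = 3) and that at 18 dpp 2251 ± 366 TPM (SD, n = 5).

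**Figure D1:**
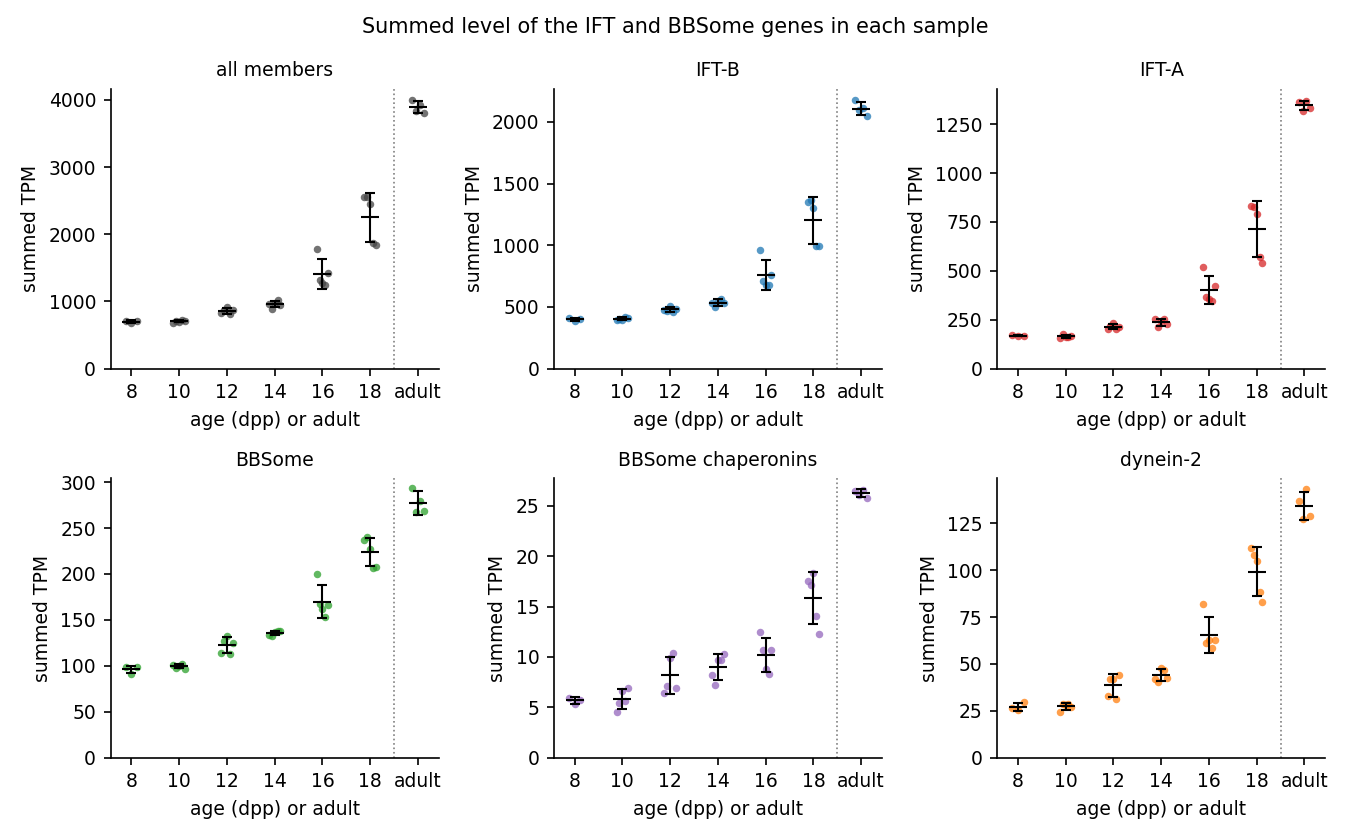
Summed TPM of all 30 members and of each complex (vertical axes, TPM, each from 0) in every sample, by age in days post partum or in adult pachytene and diplotene samples (horizontal axes). Points are samples, black bars the mean and SD, and the dotted line separates tables that were normalized apart. The sum of all members goes from 698 ± 21.9 TPM at 8 dpp to 2251 ± 366 TPM at 18 dpp and 3890.2 ± 88.8 TPM in adult samples.

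Of the 30 members, 29 differed among the 6 ages (limma, adjusted p under 0.05), where 77.6% of all 20368 genes did. From 8 to 18 dpp 29 members were called, where 68.2% of all genes were, and all 29 rose, where 31.8% of all genes rose. In the same comparison 0 members fell (limma, and 0 at an unadjusted p under 0.05), against 36.3% of all genes. The split of all genes was 6487 up and 7402 down, and it was 7589 up and 5991 down with median-of-ratios factors and 5532 up and 9148 down with quantile normalization. The median log2 fold change, on the log2(TPM + 1) scale, was 1.48 for the members and -0.09 for all genes. It was 2.31 for IFT-A, 1.75 for dynein-2, 1.38 for IFT-B, 1.13 for the BBSome and 1.01 for the BBSome chaperonins. The median of all genes moved to 0.05 with median-of-ratios factors and to -0.26 with quantile normalization. Under quantile normalization the direction of Bbs12 turned and Bbs4 no longer passed the threshold.

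**Figure D2:**
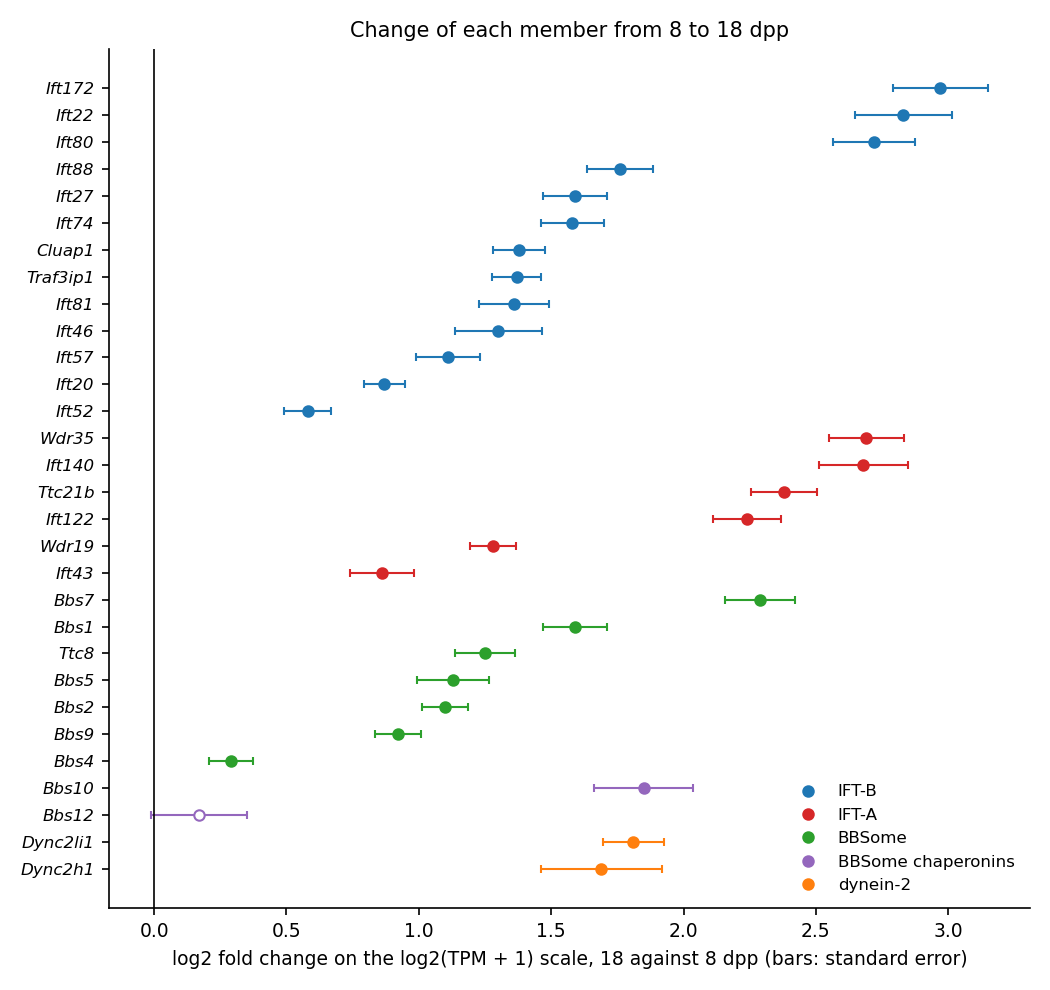
Log2 fold change from 8 to 18 dpp on the log2(TPM + 1) scale (horizontal axis, with standard errors) of each member (vertical axis), coloured by complex. Filled points have a limma adjusted p under 0.05, and the open point, Bbs12, does not. Values run from 0.17 for Bbs12 to 2.97 for Ift172, and under quantile normalization that of Bbs12 is -0.07.

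The promoters of the members were searched for GTTGCC, the core of the X-box that RFX transcription factors bind in many cilium genes, and for its extension GTTGCCATG, both on either strand. RefSeq promoters (GRCm38.p6, 250 bases before to 50 bases after the gene's start) were matched for 26 members, and not for Dync2li1, Ift122, Ift80 and Ift81. GTTGCC was found in 11 of the 26 (42.3%), against 12.5% of all 32851 promoters. GTTGCCATG was found in 0 of the 26, against 0.773% of all promoters. Matches of GTTGCC lay before the RefSeq start in 5 members, Bbs7, Ift140, Ift27, Ift57 and Traf3ip1, and at or after it in 6 members, Bbs1, Bbs5, Dync2h1, Ift172, Ift88 and Wdr35. A match is only a description of the letters, and no binding was measured. The stretches of 60 bases that hold a match ahead of the start in both RefSeq and GENCODE are shown for 4 members, in the orientation of the gene from 5′ to 3′, with GTTGCC or its reverse complement GGCAAC in capitals.
Bbs7 promoter stretch (chr3:36613478-36613537, reverse strand): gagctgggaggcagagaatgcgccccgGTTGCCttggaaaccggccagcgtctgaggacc
Ift140 promoter stretch (chr17:25015950-25016009, forward strand): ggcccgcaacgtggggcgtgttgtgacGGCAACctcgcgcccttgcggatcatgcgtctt
Ift57 promoter stretch (chr16:49699173-49699232, forward strand): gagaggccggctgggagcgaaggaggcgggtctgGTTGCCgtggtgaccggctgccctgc
Traf3ip1 promoter stretch (chr1:91494562-91494621, forward strand): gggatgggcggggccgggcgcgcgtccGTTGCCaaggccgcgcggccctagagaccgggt
The match in Ift140 is on the strand opposite to the gene, and those in the other 3 genes are on the gene's own strand.

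IFT-B had 13 members, and all 13 rose from 8 to 18 dpp. The largest rise among them was that of Ift172 (ENSMUSG00000038564, chromosome 5 of GRCm38 from 31253277 to 31291116), the largest peripheral subunit of the complex. It was at 12.9, 13.4 and 13.5 TPM in the mice at 8 dpp and at 149, 142, 129.6, 83.5 and 72.2 TPM in those at 18 dpp. All mice at 18 dpp were thus far above those at 8 dpp, and mice 4 and 5 were the lowest at 18 dpp. The log2 fold change was 2.97 (standard error 0.180, limma adjusted p = 8.44e-14).

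Ift52 (ENSMUSG00000017858, chromosome 2 from 163017354 to 163046141), a core subunit that ties the core together, had the smallest rise in IFT-B. Its levels were 42.9, 40.8 and 46.4 TPM at 8 dpp and 68.5, 71.3, 66.8, 56.3 and 64.3 TPM at 18 dpp, again without overlap. This was a log2 fold change of 0.58 (standard error 0.0879, limma adjusted p = 1.64e-06). Ift20 (ENSMUSG00000001105, chromosome 11 from 78536361 to 78541737), a small subunit that also sits at the Golgi, had the highest mean of the complex over the 28 mice, 121 TPM. It went from 90.3, 82.6 and 87.3 TPM at 8 dpp to 156, 179, 157, 145 and 159 TPM at 18 dpp. In this gene mice 4 and 5 did not stand apart from mouse 1 and mouse 3 as they did in Ift172. On the log2 scale its change was 0.87 (standard error 0.0774, limma adjusted p = 1.61e-10).

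The other 10 members of IFT-B had log2 fold changes between 1.11 for Ift57 and 2.83 for Ift22. Ift22, a small GTPase-like subunit, and Ift80 (2.72) were nearest to Ift172. Ift88 (1.76), Ift27 (1.59), Ift74 (1.58), Cluap1 (1.38), Traf3ip1 (1.37), Ift81 (1.36) and Ift46 (1.30) followed. Ift74 and Ift81 form the pair that binds tubulin, and Ift27 is a Rab-like GTPase that links the trains to the BBSome. Within the complex, Ift20 had the highest mean at each age up to 16 dpp, and Ift46 the highest at 18 dpp with 196 ± 57.6 TPM (SD, n = 5). Ift46 had been at 76.2 ± 0.822 TPM at 8 dpp (SD, n = 3). The lowest mean at 18 dpp was that of Traf3ip1, 29.4 TPM, and that of Ift46 was 6.67 times as high.

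IFT-A also admits membrane proteins to the cilium, and all 6 of its members rose from 8 to 18 dpp. Wdr35 (ENSMUSG00000066643, chromosome 12 from 8973892 to 9028847), the subunit also called IFT121, had the largest rise. It was at 17.6, 15.1 and 17.5 TPM at 8 dpp and at 128, 137, 127, 94.5 and 90.2 TPM at 18 dpp. The 2 ages were far apart, and mice 4 and 5 were the lowest at 18 dpp. Its log2 fold change was 2.69 (standard error 0.142, limma adjusted p = 5.64e-15).

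Ift140 (ENSMUSG00000024169, chromosome 17 from 25016085 to 25099495), a core subunit of IFT-A, came next to Wdr35 and is described although its values were seen before it was chosen. Its levels were 31.3, 28.9 and 29.1 TPM at 8 dpp, 117, 76.6, 72.8, 75.7 and 95.5 TPM at 16 dpp, and 261, 249, 232, 142 and 137 TPM at 18 dpp. At 18 dpp mice 1, 2 and 3 lay close together, far above mice 4 and 5, which were still above every mouse at 16 dpp. The log2 fold change from 8 to 18 dpp was 2.68 (standard error 0.168, limma adjusted p = 1.45e-13). Tmem204 overlaps Ift140 on the other strand, and reads of such pairs may have been shared, since no strand-specific protocol is stated. The same holds for 12 of the 30 members, each of which overlaps a gene of the other strand. Among the members, Bbs12, Cluap1, Ift74, Ift80 and Ift81 also overlap genes on their own strand, with which reads may likewise have been shared.

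Ift43 (ENSMUSG00000007867, chromosome 12 from 86082541 to 86162459), the smallest IFT-A subunit, had both the smallest rise and the highest mean over the 28 mice, 75.2 TPM. It was at 61.3, 62.7 and 58.6 TPM at 8 dpp and at 125, 119, 129, 102 and 88.4 TPM at 18 dpp. For Ift43 the log2 fold change was 0.86 (standard error 0.121, limma adjusted p = 5.13e-07). At 8 dpp the means of IFT-A spanned 4.82 times, from Wdr19 with 12.6 TPM to Ift43 with 60.9 TPM. At 18 dpp they spanned 6.37 times, from Wdr19 with 32.1 TPM to Ift140 with 204 TPM. Ttc21b (log2 fold change 2.38), Ift122 (2.24) and Wdr19 (1.28) rose by amounts between those of Wdr35 and Ift43.

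All 7 BBSome members rose from 8 to 18 dpp. Bbs7 (ENSMUSG00000037325, chromosome 3 from 36573142 to 36613477), a subunit with a beta-propeller that pairs with Bbs2, had the largest rise. It was at 9.10, 7.57 and 9.21 TPM at 8 dpp and at 50.6, 53.9, 47.7, 36.2 and 42.6 TPM at 18 dpp. These ages did not overlap, and the lowest mouse at 18 dpp was mouse 4. Bbs7 thus had a log2 fold change of 2.29 (standard error 0.132, limma adjusted p = 3.15e-14).

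Bbs4 (ENSMUSG00000025235, chromosome 9 from 59321990 to 59353508), a subunit that also binds pericentriolar proteins and whose gene overlaps Adpgk on the other strand, had the smallest rise of the BBSome. Its levels were 19, 15.3 and 16.5 TPM at 8 dpp and 22.8, 23.9, 19.2, 19.2 and 19.9 TPM at 18 dpp. The lowest mice at 18 dpp, mice 3 and 4, were barely above the highest mouse at 8 dpp. The log2 fold change was 0.29 (standard error 0.0845, limma adjusted p = 0.00332), and 0.18 under quantile normalization (limma adjusted p = 0.0546). Over the alternatives tried for Bbs4 the change lay between 0.18 and 0.46.

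Bbs9 (ENSMUSG00000035919, chromosome 9 from 22475715 to 22888280), a core scaffold subunit, had the highest mean of the BBSome over the 28 mice, 41.7 TPM. It was at 30.6, 27.9 and 34.0 TPM at 8 dpp and at 58.3, 65.4, 58.6, 57.8 and 54.8 TPM at 18 dpp. Here the 5 mice at 18 dpp lay close together, with no gap between mice 1 to 3 and mice 4 and 5. For Bbs9 this gave a log2 fold change of 0.92 (standard error 0.0871, limma adjusted p = 5.22e-10). The changes of Bbs1, Ttc8, Bbs5 and Bbs2 were 1.59, 1.25, 1.13 and 1.10. Bbs1, which contacts the membrane GTPase Arl6, was the lowest BBSome member at every age, with 4.34 TPM on average at 8 dpp and 15.1 TPM at 18 dpp.

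Bbs10 and Bbs12 are relatives of group II chaperonins that help to assemble the BBSome core, and only Bbs10 rose. Bbs10 (ENSMUSG00000035759, chromosome 10 from 111298679 to 111301727) was at 2.18, 2.83 and 2.86 TPM at 8 dpp and at 14.2, 12.9, 14.8, 11.2 and 8.28 TPM at 18 dpp, without overlap. Bbs10 had a log2 fold change of 1.85 (standard error 0.187, limma adjusted p = 1.54e-09). Bbs12 (ENSMUSG00000051444, chromosome 3 from 37312554 to 37321453, overlapping Cetn4 on the other strand and Gm43439 on its own) was at 3.78, 2.52 and 2.91 TPM at 8 dpp and at 3.30, 4.12, 3.56, 2.90 and 3.98 TPM at 18 dpp. These values of Bbs12 overlapped, and the log2 fold change was 0.17 (standard error 0.182, limma adjusted p = 0.411), which was -0.07 under quantile normalization. Over the 6 ages together its adjusted p was 0.338 (limma).

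Both members of dynein-2, the motor that returns the trains to the base, rose from 8 to 18 dpp. Dync2li1 (ENSMUSG00000024253, chromosome 17 from 84626496 to 84655588), its light intermediate chain, went from 15.7, 17.4 and 19.4 TPM at 8 dpp to 60.5, 65.9, 67.7, 64.5 and 60.7 TPM at 18 dpp. Its log2 fold change was 1.81 (standard error 0.115, limma adjusted p = 2.12e-13). Dync2h1 (ENSMUSG00000047193, chromosome 9 from 6928503 to 7184446), the heavy chain with the motor domain, went from 11.1, 8.07 and 10.2 TPM to 51.7, 41.6, 37.8, 23.6 and 22.3 TPM. The heavy chain had a log2 fold change of 1.69 (standard error 0.230, limma adjusted p = 2.91e-07). The mice at 18 dpp were tightly grouped for the light intermediate chain, whereas for the heavy chain mouse 1 was far above mice 4 and 5.

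Neighbouring ages were compared to place the rises in time. From 8 to 10 dpp 0 members were called (limma, and 3 up and 0 down at an unadjusted p under 0.05), where 1.2% of all genes were, 0.977% up and 0.226% down, and at an unadjusted p under 0.05 1312 genes rose and 1025 fell. From 10 to 12 dpp 15 members rose, where 21.4% of all genes were called, 12.0% up and 9.39% down. From 12 to 14 dpp 0 members were called (limma, and 11 up and 1 down at an unadjusted p under 0.05), where 0.172% of all genes were, 0.157% up and 0.0147% down, and at an unadjusted p under 0.05 1534 genes rose and 428 fell. From 14 to 16 dpp 24 members rose, where 24.0% of all genes were called, 12.7% up and 11.3% down. From 16 to 18 dpp 28 members rose, where 54.0% of all genes were called, 23.4% up and 30.6% down. In these 5 steps 0 members fell at an adjusted p under 0.05, and at an unadjusted p under 0.05 there was 1 from 10 to 12 dpp and 1 from 12 to 14 dpp (limma). With only the compared ages in the model, 1 member fell from 10 to 12 dpp. Neighbouring steps share mice and are not independent of each other.

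**Figure D3:**
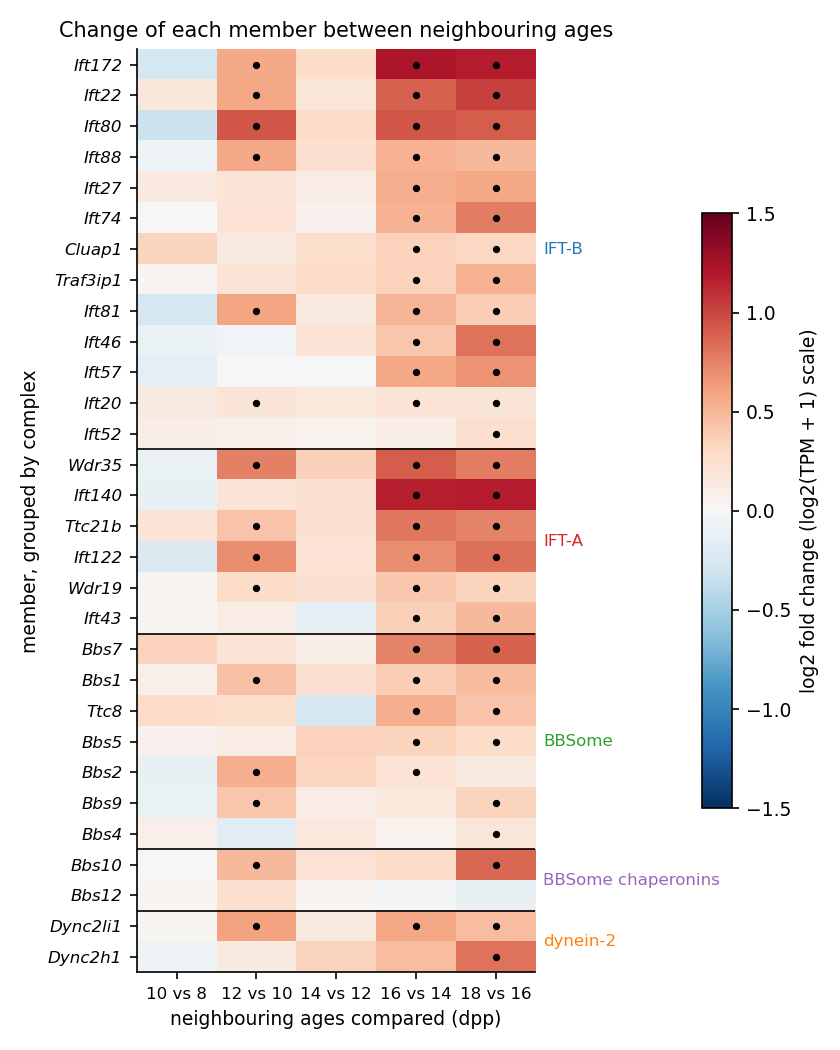
Log2 fold change between neighbouring ages (horizontal axis, in dpp) on the log2(TPM + 1) scale for each member (vertical axis, grouped by complex), with red for a rise and blue for a fall. Black dots mark limma adjusted p-values under 0.05, which 15 members have from 10 to 12 dpp, 24 from 14 to 16 dpp and 28 from 16 to 18 dpp.

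The early step took in parts of every complex. It included 6 of the 13 IFT-B members (Ift172, Ift20, Ift22, Ift80, Ift81 and Ift88), 4 of the 6 IFT-A members (Ift122, Ttc21b, Wdr19 and Wdr35), 3 of the 7 BBSome members (Bbs1, Bbs2 and Bbs9), Bbs10 and Dync2li1. The largest of these early rises was that of Ift80, with a log2 fold change of 0.93. Ift140 was not among them, with 0.21 from 10 to 12 dpp (limma adjusted p = 0.350), and it then rose by 1.17 from 14 to 16 dpp and by 1.18 from 16 to 18 dpp. Ift172 moved by 1.21 and 1.18 in the same 2 steps. Bbs2 rose in the steps to 12 and to 16 dpp but was not called from 16 to 18 dpp, with 0.13 (limma adjusted p = 0.155). A total of 12 members were called in 3 steps, 14 in 2 steps, Bbs4, Dync2h1 and Ift52 in 1 step each, all from 16 to 18 dpp, and Bbs12 in 0.

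Within the group, the use of transcripts was tested between the 8 mice of 8 and 10 dpp and the 10 mice of 16 and 18 dpp, with each transcript taken as a percentage of the TPM of its gene. The test covered 58 transcripts of 17 members. With a change of at least 20 points and a limma adjusted p under 0.05, 2 of the 58 member transcripts were called, against 2.11% of all 26345 transcripts tested. That count is near the background. It includes Ift122-202, which passed the filter on low levels only through the mice of 16 and 18 dpp, where it is high. No support is therefore drawn from its call, nor from the other call, whose share of the same gene is tied to it. The 2 transcripts are described for their gene alone. Both belong to Ift122 (ENSMUSG00000030323, chromosome 6 from 115853470 to 115926699), the IFT-A core subunit that bridges the rest of that complex. The table held 11 transcripts of Ift122, of which 8 reached 1 TPM in a mouse.

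Ift122-202 (ENSMUST00000112923) took 3.98%, 4.49% and 1.58% of the gene's TPM in the mice at 8 dpp and 0%, 0%, 2.78%, 2.41% and 2.87% in those at 10 dpp. It took 27.9%, 14.1%, 17.4%, 20.0% and 26.2% at 16 dpp and 44.1%, 36.8%, 40.2%, 28.9% and 22.3% at 18 dpp. The transcript entered the test through its mean of 33.6 TPM in the late mice, since its early mean was 0.600 TPM. Every late mouse was above every early mouse. The mean shares at 12 dpp (5.35% ± 2.08) and 14 dpp (8.22% ± 4.29; SD, n = 5 at each age) lay between, with single mice of both ages inside the early range. The change was 25.5 points (standard error 3.47), given as a description with no p, since the filter on low levels let the transcript in through the group where it is high. The transcript's own level averaged 0.943 ± 0.410 TPM (SD, n = 3) at the first age and 50.3 ± 20.9 TPM (SD, n = 5) at the last.

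Ift122-203 (ENSMUST00000112925) took the largest part of the gene's TPM in most young mice, with 37.1%, 71.1% and 63.3% at 8 dpp and 76.4%, 69.3%, 70.8%, 61.3% and 76.2% at 10 dpp. At 16 dpp it took 41.7%, 51.0%, 59.0%, 41.8% and 45.8%, and at 18 dpp 30.7%, 38.0%, 21.4%, 38.7% and 50.7%. Mouse 1 at 8 dpp lay among the late mice, whereas the other early mice were all above them. The change was -23.8 points (standard error 5.36, limma adjusted p = 0.00618). Its own level did not decline, with a mean of 16.1 ± 4.36 TPM (SD, n = 3) at 8 dpp and of 48.9 ± 11.3 TPM (SD, n = 5) at 18 dpp. Ift122-201 took 25.2% ± 12.7 early (SD, n = 8) and 28.4% ± 5.18 late (SD, n = 10), with a change of 3.14 points (limma adjusted p = 0.702).

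**Figure D4:**
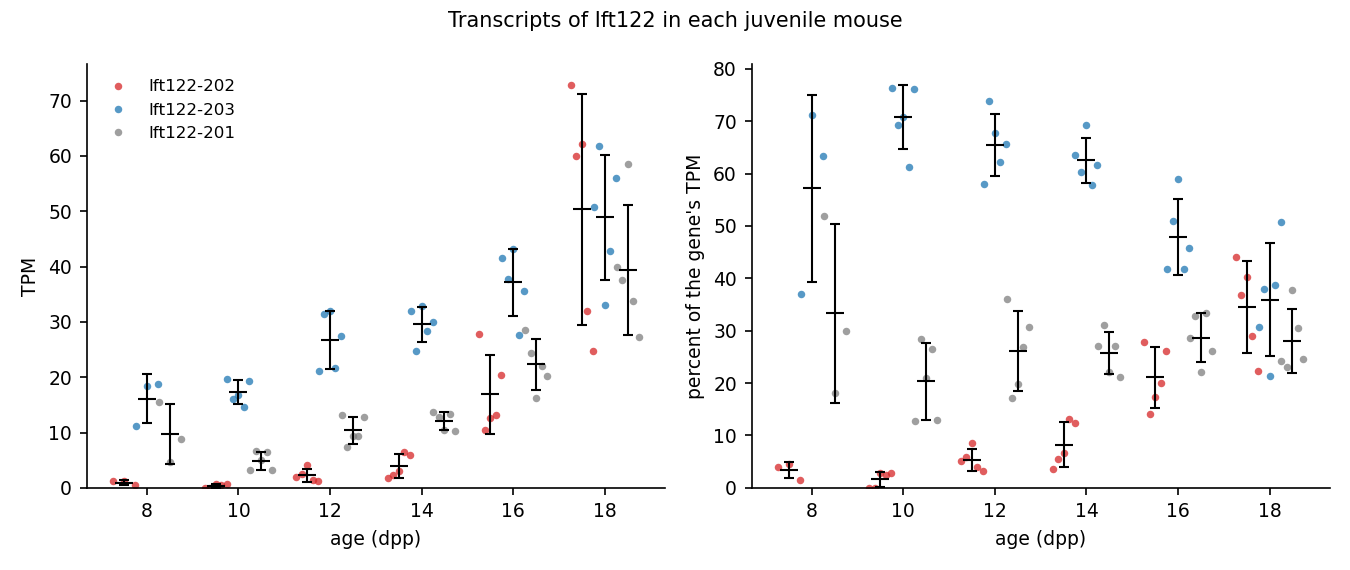
Level (left, TPM) and share of the gene's TPM (right, percent) of 3 Ift122 transcripts in each of the 28 juvenile mice, by age in dpp. Points are mice, and black bars show the mean and SD. Ift122-202 goes from 3.35% ± 1.55 of the gene at 8 dpp to 34.5% ± 8.81 at 18 dpp, and Ift122-203 from 57.2% ± 17.8 to 35.9% ± 10.8.

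GENCODE M21 gives Ift122-202 30 exons, 3765 bases and transcript support level 5, the lowest, and Ift122-203 29 exons, 4122 bases and level 1. Which differences between the 2 transcripts the estimated shares rest on was not tested. The identifiers of the table come from Ensembl release 75, and adult transcript values were not analysed here.

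In the adult samples of pachytene and diplotene spermatocytes the members summed to 3997, 3829.7, 3929 and 3806 TPM, with a mean of 3890.2 ± 88.8 TPM (SD, n = 4). The adult and juvenile tables were normalized apart, so levels are set side by side without a test. In 22 members all adult samples lay above all mice at 18 dpp, where 22.3% of 20366 genes did. In 2 members, Bbs2 and Bbs12, all adult samples lay below all mice at 18 dpp, where 53.3% of genes did. The other 6 members, Bbs1, Bbs5, Bbs9, Dync2li1, Ift88 and Ttc8, overlapped. The median ratio of the adult mean to the mean at 18 dpp was 1.49 for the members and 0.514 for all genes.

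Adult samples were above those of 18 dpp in 12 of the 13 IFT-B members, in 6 of the 6 IFT-A members and in 2 of the 7 BBSome members, Bbs4 and Bbs7, beside the 22.3% of all genes. A difference between complexes was not tested. Ift140 reached 508, 497, 499 and 519 TPM in the adult samples, and its ratio of 2.47 to the mean at 18 dpp was the largest among the members. Ift172 (248, 256, 257 and 259.9 TPM, ratio 2.22), Ift46 (445, 419.7, 422 and 415 TPM, ratio 2.17) and Ift22 (316, 288, 278 and 279.9 TPM, ratio 2.11) followed. Mice 4 and 5 at 18 dpp, the lowest of that age in these genes, were the farthest from the adult level.

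Among the BBSome genes, Bbs7 had 82.2, 81.1, 82.9 and 77.0 TPM in adult samples and replaced Bbs9 as the highest member. Bbs2 had 33.1, 32.8, 32.5 and 29.1 TPM, under the 39.3, 40.3, 40.7, 37.2 and 37.5 TPM of the mice at 18 dpp. The chaperonins parted further. Bbs10 had 24.4, 25.6, 24.7 and 25.1 TPM and Bbs12 had 2.14, 0.490, 1.94 and 0.690 TPM in the adult samples, which puts the ratio of their means at 19. At 18 dpp that ratio was 3.43. For dynein-2, Dync2h1 was above Dync2li1 in adult samples alone, with means of 74.2 ± 4.34 and 59.9 ± 3.32 TPM (SD, n = 4).

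Subunits of the same machines that the naming rule leaves out were counted from a list of 15 genes, in which 13 rose and 1 fell from 8 to 18 dpp, against 31.8% and 36.3% of all genes, with a median log2 fold change of 1.31. The largest rises were those of Ttc30a2, Dynlrb2 and Ttc30a1. Ttc30a2 (ENSMUSG00000075272) and Ttc30a1 (ENSMUSG00000075271) encode versions of the IFT-B peripheral subunit IFT70, and with Ttc30b they are close copies whose reads may have been shared, so that the level of each is uncertain. Ttc30a2 had 0.140, 0.160 and 0.420 TPM at 8 dpp, 123, 123, 120, 73.4 and 58.7 TPM at 18 dpp and 304, 304, 293 and 289 TPM in adult samples. Ttc30a1 had 2.60, 3.68 and 2.85 TPM at 8 dpp, 48.3, 51.5, 52.9, 40.6 and 40.3 TPM at 18 dpp and 75.5, 67.7, 79.2 and 68.5 TPM in adult samples. Ttc30a2 was thus the lower of the pair at 8 dpp and the higher at 18 dpp and in adults. The log2 fold changes were 6.29 for Ttc30a2 (standard error 0.293) and 3.56 for Ttc30a1 (standard error 0.162, limma adjusted p = 4.04e-16). Ttc30a2, Dynlrb2 and Mak were in the gene table only through mice of 12 dpp or later, where they are higher, so their changes are given with no p, and with no filter on low values they were called in the same direction. Where the level at 8 dpp is under 1 TPM, the size of the change depends on the pseudocount, and over the alternatives it was 5.84 to 8.22 for Ttc30a2, 5.27 to 6.92 for Dynlrb2 and 3.75 to 5.06 for Mak.

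The roadblock light chains, which dynein-2 shares with cytoplasmic dynein-1, moved in opposite directions. Dynlrb2 (ENSMUSG00000034467) had 0.510, 0.580 and 0.500 TPM at 8 dpp, 80.9, 82.8, 97.6, 59.1 and 65.7 TPM at 18 dpp and 183, 151, 169 and 167 TPM in adult samples. Dynlrb1 (ENSMUSG00000047459) had 200.1, 201 and 225 TPM at 8 dpp, 102, 94.8, 118, 144 and 140.2 TPM at 18 dpp and 3.04, 6.61, 6.21 and 5.36 TPM in adult samples. At 18 dpp mice 1, 2 and 3 were the higher for Dynlrb2 and the lower for Dynlrb1. The log2 fold changes from 8 to 18 dpp were 5.65 for Dynlrb2 (standard error 0.389) and -0.81 for Dynlrb1 (standard error 0.114, limma adjusted p = 5.18e-07).

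Dynll2, an LC8 light chain, was the gene of that list that was not called. It had 227, 194 and 196 TPM at 8 dpp and 155, 178, 174, 214 and 218 TPM at 18 dpp, which overlap, with a log2 fold change of -0.14 (limma adjusted p = 0.182) that was 0.04 with median-of-ratios factors (limma adjusted p = 0.716). It was called as a fall with a block on the mouse number, -0.19 (limma adjusted p = 0.0471), and with mice 1 to 3 only, -0.28 (limma adjusted p = 0.00325). Its level was 264 to 304 TPM at 12 dpp and 12.1, 12.1, 15.5 and 14.6 TPM in adult samples. Its paralog Dynll1 rose from 368 ± 14.3 TPM (SD, n = 3) at 8 dpp to 524 ± 42.8 TPM (SD, n = 5) at 18 dpp and was lower in all adult samples, with 378, 298, 346 and 328 TPM.

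**Figure D5:**
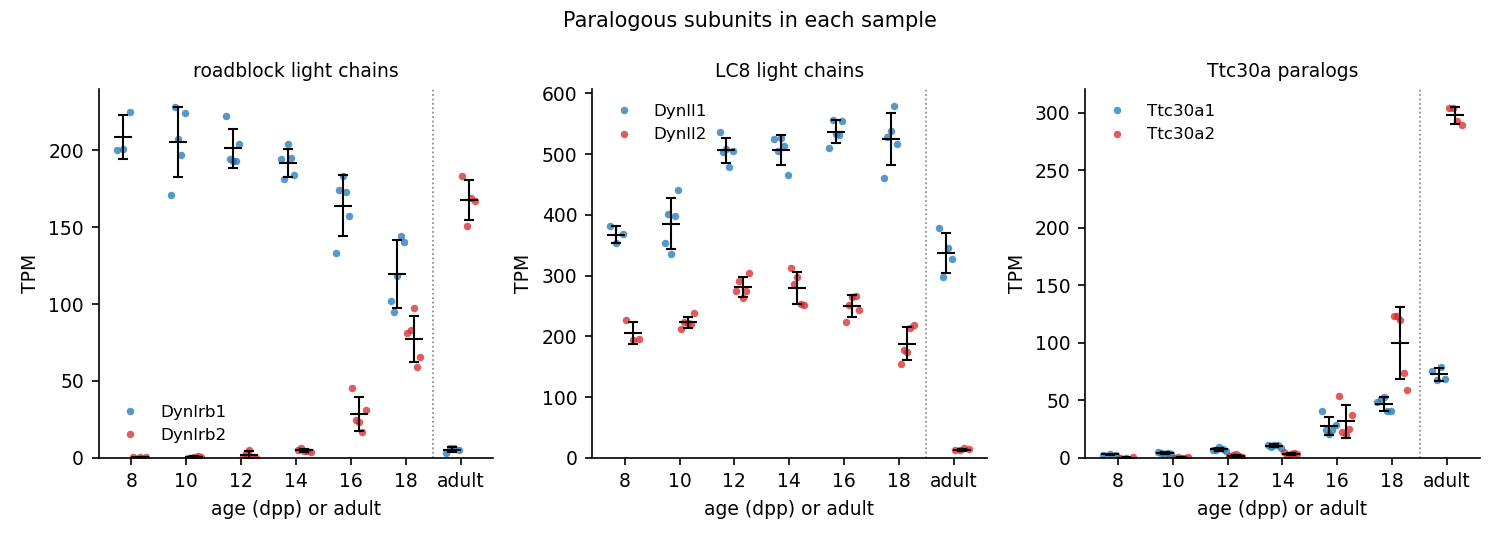
TPM (vertical axes, from 0) of paralogous subunits in every sample, by age in dpp or in adult samples (horizontal axes), for the roadblock light chains, the LC8 light chains and the Ttc30a pair. Points are samples, black bars the mean and SD, and the dotted line separates tables normalized apart. Dynlrb1 goes from 209 ± 13.9 TPM at 8 dpp to 5.30 ± 1.60 TPM in adult samples, and Dynlrb2 from 0.530 ± 0.0436 to 167 ± 12.8 TPM.

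Of 22 genes of kinesin-2, cargo adaptors and regulators, 12 rose (54.5%) and 5 fell (22.7%) from 8 to 18 dpp, against 31.8% and 36.3% of all genes, with a median log2 fold change of 0.58. The largest rises were in kinases and a GTPase. Mak (ENSMUSG00000021363), a kinase that restrains the length of cilia, went from 0.767 ± 0.178 TPM (SD, n = 3) to 29.5 ± 8.54 TPM (SD, n = 5), a log2 fold change of 4.06. Cdk20 (ENSMUSG00000021483), a related kinase, rose by 2.51 (limma adjusted p = 1.88e-12), and Arl3 (ENSMUSG00000025035), a GTPase that releases lipid-bound cargo in cilia, by 2.21 (limma adjusted p = 2.41e-13). Of the kinesin-2 motor that drives the outward trains, Kif3a (0.54), Kif3b (1.26) and the associated subunit Kifap3 (1.05) rose, and Kif3c was not called, with 0.21 (limma adjusted p = 0.0639).

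The largest falls in that list were those of Tulp3, Kif17 and Rp2, and Ick and Unc119 also fell. Tulp3 (ENSMUSG00000001521), which carries receptors to the cilium together with IFT-A, went from 37.2, 41.6 and 41.2 TPM at 8 dpp to 19.8, 19.1, 19.2, 22.1 and 25.2 TPM at 18 dpp and had 2.38, 1.92, 2.00 and 2.25 TPM in adult samples. Its log2 fold change was -0.90 (limma adjusted p = 2.54e-09), opposite to that of every IFT-A member. It had first risen, to 55.0, 55.0, 53.4, 52.6 and 54.4 TPM at 10 dpp, a log2 fold change of 0.43 from 8 dpp (limma adjusted p = 0.0163). Kif17 (ENSMUSG00000028758), a homodimeric kinesin-2, had 6.22, 5.90 and 5.91 TPM at 8 dpp and 3.89, 4.20, 3.69, 2.80 and 3.47 TPM at 18 dpp, a log2 fold change of -0.61 (limma adjusted p = 6.61e-04). In adult samples it had 20.2, 12.7, 23.8 and 21.2 TPM, above every juvenile mouse. Rp2 (ENSMUSG00000060090), which acts on Arl3, had a log2 fold change of -0.60 (limma adjusted p = 0.00168).

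The transition zone, the gate at the base of the cilium, was represented by 17 genes, of which 15 rose and 2 fell from 8 to 18 dpp, against 31.8% and 36.3% of all genes, with a median log2 fold change of 1.09. B9d1 (ENSMUSG00000001039) and Ahi1 (ENSMUSG00000019986), both of the complexes that fence the cilium membrane, rose by 2.72 (limma adjusted p = 9.66e-14) and by 2.03 (limma adjusted p = 4.05e-10) on the log2 scale. Cc2d2a (ENSMUSG00000039765), of the same complexes, was among those that fell, with -0.63 (limma adjusted p = 0.00839), but leaving out mouse 2 of 8 dpp gave -0.41 (limma adjusted p = 0.111), and with only the compared ages in the model the adjusted p was 0.0824.

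Transcription factors known to act on cilium genes or in pachytene cells are given by level alone. Rfx2 (ENSMUSG00000024206) had 6.04, 4.55 and 6.63 TPM at 8 dpp, 158, 143, 143, 93.8 and 86.2 TPM at 18 dpp and 280.1, 283, 268 and 304 TPM in adult samples. Rfx4 was between 0 and 0.160 TPM at 8 dpp and averaged 33.4 ± 10.6 TPM (SD, n = 5) at 18 dpp. Mybl1 averaged 12.2 ± 0.546 TPM (SD, n = 3) at 8 dpp and 47.7 ± 7.64 TPM (SD, n = 5) at 18 dpp. Both were higher still in adult samples, with 82.8 ± 7.34 and 83.0 ± 4.87 TPM (SD, n = 4). At 8 dpp Rfx1 and Rfx3 averaged 15.0 ± 0.535 and 4.34 ± 0.552 TPM (SD, n = 3), and at 18 dpp 9.21 ± 1.23 and 3.95 ± 0.584 TPM (SD, n = 5). Foxj1, the regulator of motile cilia, was at most at 6.79 TPM in a juvenile mouse and had 9.31 ± 2.09 TPM in adult samples (SD, n = 4).

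Markers of the cells in the samples were read as sums beside the members. The 6 spermatocyte markers were all called as a rise from 8 to 18 dpp, where 31.8% of all genes rose. Among them, Spag6 was in the gene table only through 18 dpp, where it is higher (at most 3.99 TPM), so no support is drawn from its call. The sum of the 6 markers went from 315, 209 and 309 TPM at 8 dpp to 2579.8, 1677, 1418, 1345 and 1898 TPM at 16 dpp and 4214, 4407, 4354, 2959.6 and 2946 TPM at 18 dpp. The sum was thus highest in mouse 1 at 16 dpp and in the first 3 mice at 18 dpp, as was the sum of the members. At 18 dpp Ldhc carried most of it, and Sycp3, Sycp1 and Hormad1 went the other way, with their lowest values (444, 195 and 253 TPM) in mouse 1 and their highest (549, 262 and 309 TPM) in mouse 5. At 10, 12 and 14 dpp the sums were 232 to 278, 487 to 714 and 574 to 881 TPM. Adult samples had 8106, 8256, 8366 and 7953 TPM, again mostly from Ldhc. Sycp3, Sycp1 and Hormad1 were lower in every adult sample than in every mouse at 18 dpp, with ratios of the means of 0.746, 0.457 and 0.650. Sycp3 was the most abundant of the list up to 14 dpp and Ldhc afterwards, with 2396 TPM on average at 18 dpp and 6852 TPM in adults.

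Of 8 Sertoli markers 7 fell and 1, Rhox5, rose from 8 to 18 dpp, where 36.3% of all genes fell and 31.8% rose. Their sum was 7584, 8376 and 7374 TPM at 8 dpp, 3611, 3528, 3691, 4676 and 4647 TPM at 18 dpp and 318, 411, 381 and 463 TPM in adult samples. It was 7234 to 8138, 7197 to 8168, 5923 to 7271 and 5376 to 7506 TPM at 10, 12, 14 and 16 dpp, and Clu was the most abundant gene in every group. Mice 4 and 5 at 18 dpp were the highest of their age, and none of the markers was at 0 in any group. All 6 spermatogonium markers fell, from a sum of 1215, 1077 and 1198 TPM at 8 dpp to 482, 494, 501, 652 and 683 TPM at 18 dpp, with 30.2, 31.9, 33.5 and 29.2 TPM in adult samples and Uchl1 as the most abundant gene. Between these ages the sum was 1019 to 1173, 997 to 1061, 880.4 to 1035 and 731 to 894 TPM. The part of these shifts in the rise of the members was not tested.

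For the counts of calls in the small lists below, 31.8% of all genes rose and 36.3% fell from 8 to 18 dpp. Of 6 spermatid markers 1, Spaca1, was in the juvenile gene table and was called as a rise. Spaca1 was in that table only through mice of 10 dpp or later, so no support is drawn from its call. Together these markers, of which Prm1, Prm2 and Tnp2 were at 0 in all mice of some ages, summed to between 2.48 and 17.0 TPM in every juvenile mouse, with Spaca1 the most abundant. In adult samples they summed to 999, 872, 1122 and 1189 TPM, with Tnp1 at 273 TPM on average, and their part in the adult levels was not tested. Peritubular markers summed to 741 ± 256 TPM at 18 dpp (SD, n = 5) and 5.57 to 10.7 TPM in adult samples, where Tagln led them, and Acta2 fell from 8 to 18 dpp as the single gene of 5. Leydig markers summed to between 168 and 472 TPM over all juvenile and adult samples, led by Insl3, and 3 of 6 were called as a rise. Lhcgr, 1 of the 3, was in the gene table only through mice of 10 dpp or later, so no support is drawn from its call. Insl3 averaged 176 TPM in adult samples. Star, Cyp11a1, Hsd3b1 and Lhcgr were lower in every adult sample than in every mouse at 18 dpp, with ratios of the means of 0.471, 0.350, 0.126 and 0.0739. Cyp17a1 and Insl3 overlapped. Macrophage markers, led by Lyz2 in juvenile mice, summed to between 21.6 and 97.4 TPM in those mice and to between 3.56 and 5.46 TPM in adult samples. In this list 4 of 5 were called as a rise. Among the 4, Adgre1 and Cd14 were in the gene table only through mice of 12 dpp or later, where they are higher. No support is drawn from those 2 calls. Red blood cell markers summed to between 170.4 and 681 TPM in juvenile mice and to between 5.38 and 8.59 TPM in adult samples, where Hbb-bs was at 0, and 0 of 5 were called. Endothelial markers summed to between 31.8 and 94.6 TPM and to between 1.43 and 3.09 TPM, with Cdh5 first in juvenile mice, and of 4 Tek rose and Kdr fell. Markers of the rete testis and efferent ducts, whose cells can carry cilia, summed to between 2.24 and 12.0 TPM in juvenile mice, and of the 3 in the gene table Pax8 fell. In adult samples these duct markers summed to between 17.4 and 19.7 TPM, of which Krt8 gave 18.5 TPM on average, while Pax8 and Cdh16 were at 0.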

How the data were processed

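Germ cell RNA of 28 juvenile mice and 4 adult pools was measured by 100 bp paired-end poly-A sequencing. The authors aligned reads with Bowtie 1.0.0 to mm10 transcripts and estimated TPM with RSEM 1.2.8, and they deposited a transcript table and an adult gene table in TPM. The juvenile gene table was deposited as a score on another scale, exp(log2(TPM + 1)) - 1, and not as the TPM that the design had assumed. It was converted back to TPM, after which 20288 of 20368 genes were within 0.2 TPM of their summed transcripts in every mouse and 80 were not. The members' largest difference was 0.0200 TPM.

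Ages were compared with limma 3.58.1 (R 4.3.3) on log2(TPM + 1), with 6 ages in 1 model, a variance trend and Benjamini-Hochberg adjustment over 20368 genes. Transcript percentages were tested with limma across all transcripts that averaged at least 1 TPM in either group and whose gene averaged 3 TPM or more in each. Both scripts were tested on simulated data. Tables and figures were made with Python 3.11.15, numpy 2.4.6, pandas 2.3.3 and matplotlib 3.10.9. Groups followed the sample labels. The authors had omitted 2 further mice of 8 dpp for poor agreement with others of that age, which leaves 3, and all libraries in the tables were used.

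Named members were, in each complex, those with the largest and the smallest change from 8 to 18 dpp and with the highest mean over 28 mice, and in each list of other genes the 3 largest changes in each direction. Other names were chosen after values were seen. Members and lists (other subunits, kinesin-2 with adaptors and regulators, transition zone, transcription regulators and markers of cell types) were chosen with earlier results of these data known. Alternatives were other pseudocounts, filters, scalings, gene sums, models, mouse subsets and each mouse left out. Read depth is not in the tables, so the precision that it gives is unknown. Some items that these rules name are not reported here.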

Additional observations from a re-analysis of the deposited data

Results flagged for a closer look

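In 11 of 236 groups of 4 or 5 samples, 1 sample stood far from the others for the spread of its group, 10 high and 1 low. Chance gives about 1 in 20 such groups, and the groups share mice and are not independent. At 12 dpp mouse 3 was high in Bbs1 (8.29 TPM, nearest 6.48), Ift172 (19.4 TPM, nearest 16.4) and Wdr35 (31.8 TPM, nearest 26.8). At 16 dpp mouse 1 was high in Bbs4 (21.1 TPM, nearest 18.0), Ift46 (150.1 TPM, nearest 105), Traf3ip1 (23.6 TPM, nearest 19.9) and the dynein-2 sum (82.0 TPM, nearest 62.9). Ift43 was high in mouse 2 at 10 dpp (76.2 TPM, nearest 61.4) and Cluap1 in mouse 6 at 14 dpp (31.9 TPM, nearest 27.6). Ift122-211 took a high share of its gene in mouse 1 at 14 dpp (2.86%, nearest 1.65%). Bbs2 was low in adult sample 4 (29.1 TPM, nearest 32.5).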

How the results depend on the processing

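The count of members that differed among the 6 ages was 29 under all 9 alternatives and without any 1 mouse. The count that rose from 8 to 18 dpp was 28 to 29 and the count that fell was 0 (limma, also 0 at an unadjusted p under 0.05 in the fit reported). Calls between neighbouring ages summed to 59 to 67 under the alternatives and to 60 to 68 without 1 mouse. Transcripts called for usage were 2, and 5 of 58 with a change of at least 10 points, where 1632 of all 26345 were. Both counts include Ift122-202, which passed the filter on low levels only through the late mice, where it is high. No support is drawn from that call under any setting. Without 1 mouse, the summed level was 2176 to 2355 TPM at 18 dpp, and without 1 adult sample 3855 to 3918 TPM. Bbs12 turned to -0.07 under quantile normalization and Dynll2 to 0.04 with median-of-ratios factors, and the cause was not tested. Among the members, 1138 values over settings kept their direction and side of the threshold, 1 became weaker and 1 turned.

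With a replicate block on the mouse number, 29 members rose from 8 to 18 dpp, and the calls between neighbouring ages summed to 62. In that fit 2 transcripts were called for usage, among them Ift122-202, to which the same limit of the filter on low levels applies. Mice with the same number did not deviate together, with correlations from -0.248 to 0.253 over 57 pairs and 3 of them over 0.1, so the mice share only a number. The numbers are those of the sample titles, and for 2 mice of 14 dpp, 6 and 7, the descriptions give others. Among the other subunits, 2 fell with the block, where Dynll2 was at -0.19 (limma adjusted p = 0.0471), and 2 fell with mice 1 to 3 only.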
